A study of Mus musculus with 20 samples.

Results

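The experiment described here is oxymetholone feeding in Fancd2-/- mice, read by RNA sequencing of KSL cells, the cKit+ Sca1+ Lin- fraction of bone marrow that holds blood stem cells and multipotent progenitors. It comprised 6 of the 20 libraries of the series, chosen by genotype and cell population. There were 3 libraries of Fancd2-/- mice on oxymetholone and 3 of Fancd2-/- mice on placebo. All mice were 4-month-old males of strain 129S4, and both groups lacked Fancd2. The oxymetholone group was fed 300 mg of the drug per kg of diet for 3 months from weaning at 3 to 4 weeks of age, and the placebo group had placebo for the same time. Each library was made from KSL cells pooled from 5 mice and sorted in 2 rounds. Every oxymetholone library had 1 placebo partner taken at the same flow cytometer setting, which gave pairs 1, 2 and 3. The name the design text gives to the placebo library of pair 1 matched a sample label only in part, and the sample with the closest name was used. Levels and changes of wild-type KSL libraries of the same strain, sex and age (3 on oxymetholone and 3 on placebo) are given only where named. They were also part of the main edgeR fit. The set of tested genes and the spread behind each p and SE thus drew on them too.

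FANCD2 is loaded onto DNA with its partner FANCI when replication forks stall at crosslinks, and loss of this pathway causes Fanconi anaemia, in which blood stem cells are depleted and the marrow fails. Oxymetholone is a synthetic anabolic androgen that has long been given to patients with marrow failure. Stem cells in the KSL fraction are mostly quiescent, and their exit from quiescence is governed by cell cycle inhibitors, by TGF-beta and interferon signals and by niche proteins. Osteopontin, encoded by Spp1 and named in the title of the series, is one such niche protein and holds stem cells in check.

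The 3 oxymetholone libraries held 14486753, 24134032 and 112579150 counted reads, and the 3 placebo libraries held 17384220, 31888686 and 32141271, in the order of the pairs. Levels are in CPM, counts scaled to a common library total. Kit, the stem cell factor receptor of the sort, was at 486 to 558 CPM on oxymetholone and 307 to 522 CPM on placebo, and the T cell marker Cd3e was at most at 0.0682 CPM on oxymetholone and 0.158 CPM on placebo. Fancd2 was at 8.73, 6.63 and 6.59 CPM on oxymetholone and at 8.23, 8.06 and 7.06 CPM on placebo, against 16.8 to 23.5 CPM in the 6 wild-type KSL libraries, so all 6 libraries were below every wild-type one. The placebo library of pair 3 stood apart. Set against the mean of the KSL libraries, its levels had a slope of -0.19 log2 units for each doubling of the transcript, and the other KSL libraries of both genotypes had slopes between -0.04 and 0.10. In this library 32 genes were at 10 CPM or more and at least 10-fold above each of the other 5 Fancd2-/- libraries, among them the matrix genes Tnc, Nid1, Pcolce and Timp1. The placebo library of pair 2 had 7 such genes, all of red cells. The oxymetholone library of pair 3 had 2, the heat shock genes Hspa1b and Hspa1a, and the other 3 libraries had 0.

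With oxymetholone, no gene passed the test in Fancd2-/- KSL cells. edgeR's quasi-likelihood test called 0 of 13259 genes (0%), and the smallest Benjamini-Hochberg adjusted p was 0.688. At an unadjusted p under 0.05 there were 903 genes (6.81%), of which 559 (4.22%) were higher and 344 (2.59%) lower on oxymetholone. This share depended on the fit. With the 6 Fancd2-/- libraries fitted alone it was 556 of 12792 genes (4.35%), and with no pair block 581 of 13259 (4.38%). DESeq2 and limma voom also called 0 genes, with 921 and 306 at an unadjusted p under 0.05. The libraries are pools and nothing says that pools of different pairs were treated at separate times, so these p-values measure the spread between pools. In bulk samples such as these, fewer cells of a type and less RNA per cell cannot be told apart.

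The 3 pairs gave little agreement on which genes were higher or lower. Across the 13259 genes, Pearson's r of the within-pair log2 changes was -0.09 between pairs 1 and 2, 0.05 between pairs 1 and 3 and 0.01 between pairs 2 and 3. Spearman's rho was -0.21, 0.07 and -0.003 for the same combinations. The share of genes with the same sign was 39.7% for pairs 1 and 2, 52.5% for pairs 1 and 3 and 49.8% for pairs 2 and 3. The pairs share no library, but genes are not independent replicates and these values carry no test. Fitted changes lay above 0 for 6393 genes (48.2%) and below 0 for 6866 (51.8%). In all, 1244 genes (9.38%) were higher on oxymetholone in 3 of 3 pairs and 1537 (11.6%) were lower in 3 of 3 pairs. These shares and those of the fitted changes are the background for the counts of every gene list below. The groups did not overlap, all oxymetholone libraries standing above all placebo libraries, for 401 genes (3.02%), and all stood below for 503 genes (3.79%). Of the genes of one sign in 3 of 3 Fancd2-/- pairs, 216 (1.63% of the genes tested) were also higher and 315 (2.38%) also lower in 3 of 3 wild-type pairs.

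**Figure D1:**
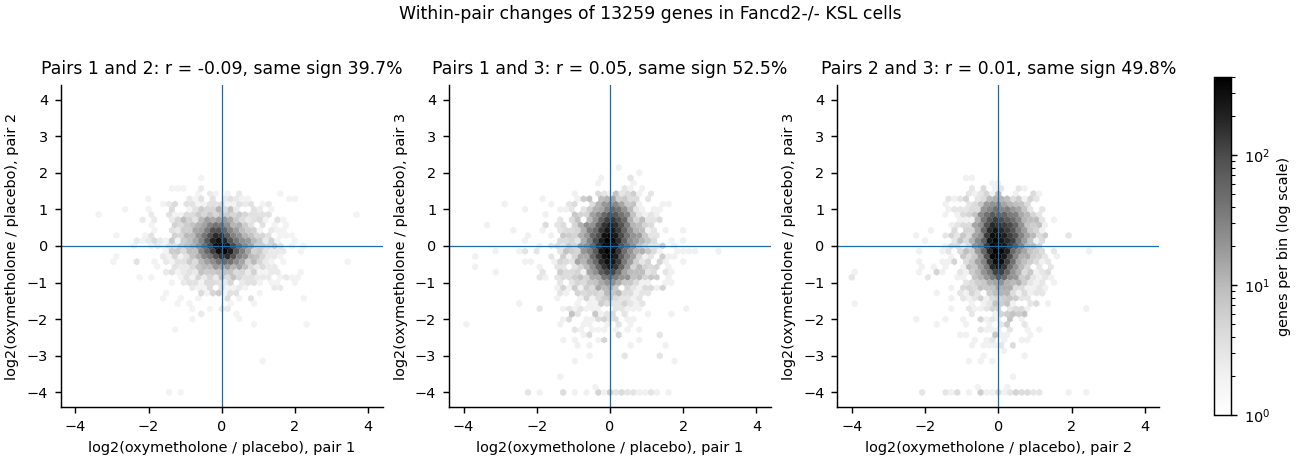
Within-pair changes of the 13259 tested genes in Fancd2-/- KSL cells, each axis the log2 ratio of oxymetholone to placebo CPM in 1 pair (prior count 2, values beyond 4 log2 units drawn at the edge) and the shade the number of genes per bin. The clouds show no diagonal, with r of -0.09, 0.05 and 0.01, and pair 3 spreads more widely than pairs 1 and 2.

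Pair 3 was the widest of the pairs. Between its libraries 1785 genes were at least 1.5-fold higher and 1734 at least 1.5-fold lower on oxymetholone, against 747 and 853 in pair 1 and 728 and 599 in pair 2. The interquartile range of the log2 change was 0.70 in pair 3, 0.34 in pair 1 and 0.35 in pair 2. Its changes also followed transcript length. The median log2 change in pair 3 was -0.48 for 697 transcripts of up to 1000 bases and 0.54 for 556 transcripts over 8000 bases, while the same medians lay between -0.03 and 0.05 for all lengths in pairs 1 and 2. The slope of the change was 0.21 log2 units per doubling of length in pair 3, -0.01 in pair 1 and 0.03 in pair 2.

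**Figure D2:**
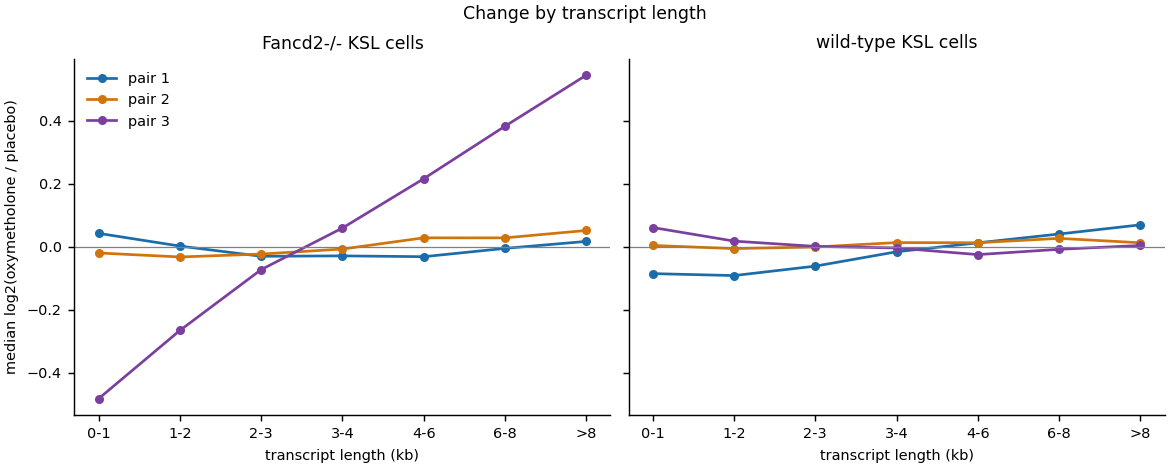
Median log2 ratio of oxymetholone to placebo by transcript length in kilobases, with 1 line per pair, in Fancd2-/- (left) and wild-type (right) KSL cells. Fancd2-/- pair 3 has the steepest line, with medians of -0.48 for the shortest and 0.54 for the longest transcripts.

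The genes with the smallest p among those of the same sign in all pairs and at a mean of 5 CPM or more are given as a ranking, since none was called. The 12 higher ones had fitted log2 changes of 0.47 to 0.72 and unadjusted p of 0.000285 to 0.0018, and the 12 lower ones had changes of -2.52 to -0.37 and unadjusted p of 0.00145 to 0.00873. The edgeR adjusted p was 0.688 for each of the 24. The groups did not overlap for 7 of the 12 higher and for 6 of the 12 lower genes, where 3.02% and 3.79% of all genes were so, and choosing genes of small p and 1 sign raises this count.

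Ankrd12 (NM_001025572, mm9 chr17:66316841-66426386), a chromatin cofactor that recruits histone deacetylases to nuclear receptor coactivators, came first among the higher genes. It was at 47.5, 51 and 36 CPM on oxymetholone and at 39, 26.1 and 19.8 CPM on placebo in pairs 1 to 3. The highest placebo library was thus above the lowest oxymetholone library, although every pair moved the same way. Its fitted log2 change over the 3 pairs was 0.71 ± 0.14 (SE, with the spread estimated over the KSL libraries of both genotypes). BC005561 (chr5:104937371-104951402), an otherwise little described gene, was at 42.4, 38.5 and 33.9 CPM on oxymetholone and at 31.8, 25.7 and 19.6 CPM on placebo. Here every oxymetholone library was above every placebo library, and the log2 change was 0.60 ± 0.12. Atrx (chrX:102992956-103124711), a chromatin remodeller that keeps repeats and telomeres silent, was at 187, 205 and 164 CPM on oxymetholone and at 170, 113 and 86.3 CPM on placebo, a log2 change of 0.64 ± 0.15 with overlapping groups.

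Tbkbp1, an adaptor of the kinase TBK1, was at 49.8, 48.1 and 62.9 CPM on oxymetholone and at 38.5, 34 and 43.7 CPM on placebo. The groups did not overlap, and the change was nearly even across the pairs at 0.37, 0.50 and 0.53 log2 units. Ubxn2a and Zbtb7a, which encodes a transcriptional repressor that silences fetal globin in human cells, also had groups that did not overlap, with log2 changes of 0.51 ± 0.12 and 0.53 ± 0.14. Med25, a subunit of the Mediator complex, had a log2 change of 0.52 ± 0.13. The remaining higher genes were Ccdc88a (0.66), Lnpep (0.72), Cep290 (0.66), Vps13a (0.63) and the kinetochore gene Cenpf (0.49). Of the 12 higher genes 6 had transcripts over 8000 bases, and their median length was 6972 bases against 3085 bases over all genes tested. After the trend on transcript length was taken off each library, 11 of the 12 were still higher in 3 of 3 pairs, and Cenpf was not.

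Serpina3f (chr12:105452754-105459339), a serine protease inhibitor of the antichymotrypsin family, came first among the lower genes. It was at 17.7, 19.9 and 10.5 CPM on oxymetholone and at 25.7, 32.7 and 26.3 CPM on placebo, a log2 change of -0.87 ± 0.22. Its neighbour in the family, Serpina3g, was at 523, 674 and 561 CPM on oxymetholone and at 734, 776 and 980 CPM on placebo (-0.50 ± 0.14). For both genes every oxymetholone library was below every placebo library. These family members are near copies of each other, so the split of reads between them is uncertain.

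Nup93, a scaffold protein of the nuclear pore, was at 64.5, 73.5 and 91 CPM on oxymetholone and at 84.9, 94.4 and 122 CPM on placebo. It was lower by a similar step in each pair (-0.40, -0.36 and -0.43 log2 units), although the groups overlapped. Cish, which encodes a feedback inhibitor of cytokine signalling through STAT5, was at 167, 185 and 143 CPM on oxymetholone and at 192, 292 and 184 CPM on placebo (-0.41 ± 0.13). The mitotic checkpoint gene Mad1l1 (-0.39), Ccdc123 (-0.46), Sdf4 (-0.37) and the pseudogene Rasl2-9-ps (-0.55) were others at moderate levels. The extracellular matrix gene Fn1, with 1.5, 1.2 and 2.37 CPM on oxymetholone and 1.7, 5.28 and 41.2 CPM on placebo, was highest in the placebo library of pair 3. Its log2 change was -2.52 ± 0.66, or -1.29 without pair 3. All 12 lower genes were also lower in 3 of 3 pairs after the length trend was taken off.

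**Figure D3:**
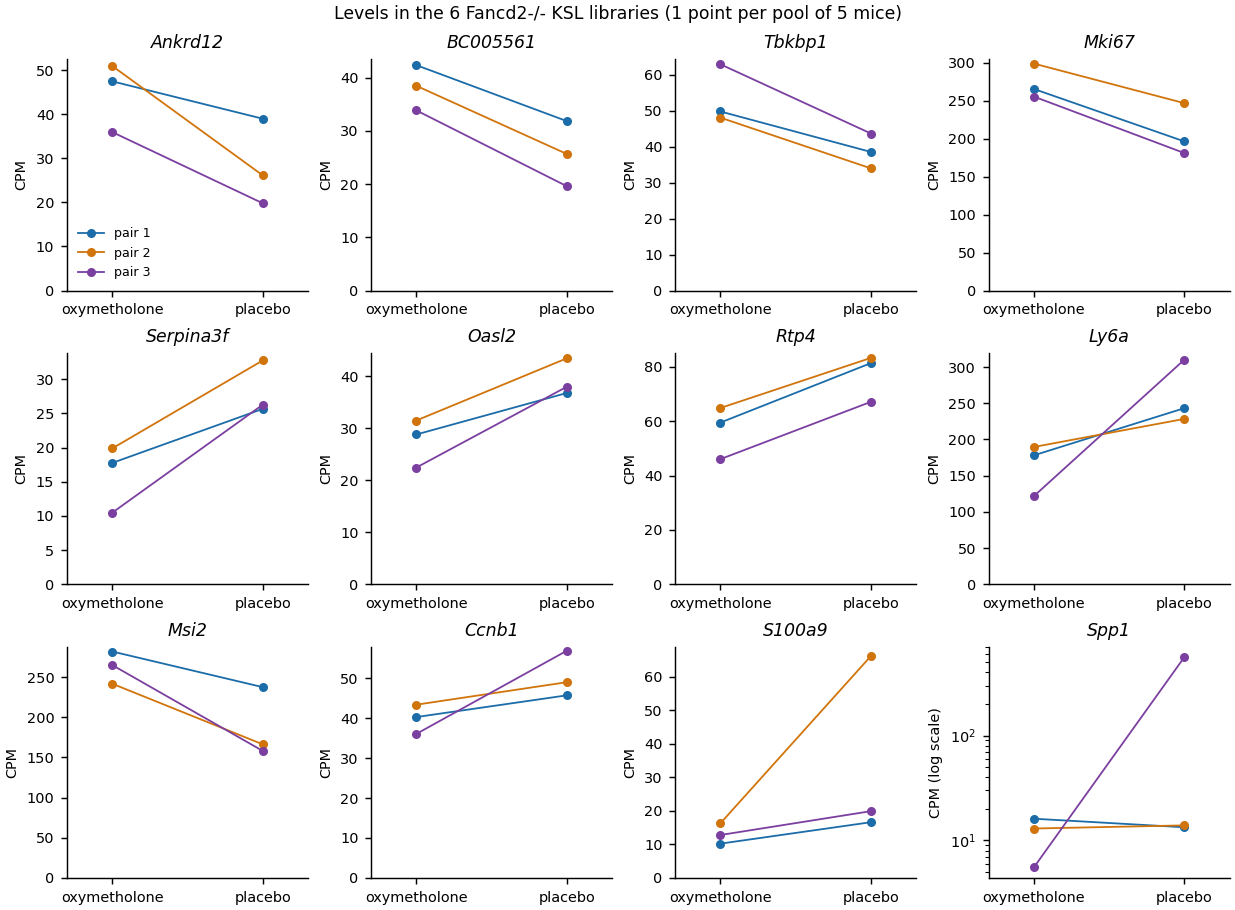
Levels in CPM of 12 genes in the 6 Fancd2-/- KSL libraries, oxymetholone left and placebo right, with a line joining the libraries of a pair (Spp1 on a log scale). BC005561, Tbkbp1 and Mki67 are higher and Serpina3f, Oasl2, Rtp4 and Ly6a lower in all oxymetholone libraries, and the Spp1 difference lies in pair 3 alone.

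A fold rule, at least 1.5-fold the same way in 3 of 3 pairs at a mean of 1 CPM or more, left 5 genes higher (0.0377% of the genes tested) and 18 lower (0.136%). The 5 higher genes were Ammecr1, Car1, Apob, Grin2d and Scn3b, of which the last 3 were below a mean of 5 CPM and are named after their values were seen. Car1 (chr3:14766214-14808365), a carbonic anhydrase of erythroid progenitors, was at 16.4, 9.81 and 12.5 CPM on oxymetholone and at 8.8, 5.63 and 8.31 CPM on placebo. The groups did not overlap, and the log2 change was 0.76 ± 0.37 (unadjusted p = 0.0701, edgeR adjusted p = 0.688). Ammecr1 was at 6.07, 6.14 and 7 CPM on oxymetholone and at 3.69, 3.38 and 4.24 CPM on placebo (0.77 ± 0.21). Apob, at 3.48, 3.01 and 4.14 CPM on oxymetholone and 1.14, 0.885 and 1.84 CPM on placebo, had the largest log2 change of the 5, 1.5 ± 0.38. In wild-type KSL cells Car1 and Apob had log2 changes of -0.85 ± 0.40 and -0.14 ± 0.39.

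Of the 18 lower genes 5 reached a mean of 5 CPM, and these were the neutrophil gene S100a9 and the globin genes Hba-a1, Hba-a2, Hbb-b1 and Hbb-b2. S100a9, which encodes a subunit of calprotectin, was at 10.2, 16.3 and 12.8 CPM on oxymetholone and at 16.6, 66.2 and 19.9 CPM on placebo. Every oxymetholone library was below every placebo library, and pair 2 stood out with a log2 change of -2.02 against -0.70 and -0.64. Hba-a1 was at 1.02, 1.15 and 1.08 CPM on oxymetholone and at 2.33, 113 and 1.84 CPM on placebo, and its log2 changes by pair were -1.15, -6.56 and -0.75 (fitted -3.07 ± 1.77). The placebo library of pair 2 alone was high. With the length trend removed, the pair 3 changes of S100a9, Hba-a1 and Hba-a2 were -0.095, -0.28 and -0.22, short of 1.5-fold. Those of Hbb-b1 and Hbb-b2 were -1.10 and -1.15. The alpha globin genes are near copies of each other, as are the beta globin genes, so their reads cannot be assigned to 1 copy with certainty. Hba-a1 and Hba-a2 were also placed at overlapping positions of chr11, with the same counts in each of the 6 libraries. Hbb-b1 and Hbb-b2 overlapped on chr7 with nearly the same counts, 1240 and 1207 in the placebo library of pair 2. The entries of each couple are thus not separate measurements, although all are counted among the 18 lower genes. Without the mean of 1 CPM, 24 genes were 1.5-fold higher and 63 were 1.5-fold lower in 3 of 3 pairs, while 2522 and 2047 were so in 1 pair only.

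Interferon response genes were lower on oxymetholone as a group. Of 41 tested genes that interferons induce, 37 had a fitted change below 0, where 51.8% of all genes did, and the median log2 change was -0.19, where that of all genes was -0.01. In 3 of 3 pairs 17 of the 41 were lower and 0 higher, and the shares over all genes were 11.6% and 9.38%. The list medians were -0.10, -0.22 and -0.26 log2 units in pairs 1, 2 and 3. No member was called by edgeR. The summed level of the list was 3905, 3906 and 3776 CPM on oxymetholone and 4018, 4448 and 4285 CPM on placebo. The groups did not overlap in this sum, although they did for most members. Without pair 3 the median was -0.14, and with the length trend removed it was -0.20 with 16 members lower in 3 of 3 pairs.

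The 4 members described here had the largest changes among those lower in 3 of 3 pairs. Ifit3 (chr19:34658019-34663472), which binds viral RNA complexes, was at 1.43, 1.65 and 1.19 CPM on oxymetholone and at 2.44, 2.56 and 3.84 CPM on placebo (log2 -1.07 ± 0.34, edgeR adjusted p = 0.688). Oasl2 (chr5:115346943-115362254), an oligoadenylate synthetase-like sensor, was at 28.8, 31.5 and 22.4 CPM on oxymetholone and at 36.8, 43.5 and 38 CPM on placebo (-0.53 ± 0.17). Rtp4, a receptor transporter induced by type I interferon, was at 59.5, 64.9 and 46 CPM on oxymetholone and at 81.4, 83.3 and 67.1 CPM on placebo (-0.45 ± 0.18). For these genes every oxymetholone library was below every placebo library. The chemokine gene Cxcl10 was at 1.64, 2.8 and 1.48 CPM on oxymetholone and at 3.92, 3.16 and 2.66 CPM on placebo, and its groups overlapped. It was nevertheless lower in each pair (-1.24, -0.17 and -0.83 log2 units). In all, every oxymetholone library was below every placebo library for 5 of the 41 members, as for 3.79% of all genes.

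The promoters of the members that were lower in 3 of 3 pairs were searched for the core of the interferon-stimulated response element, GAAANNGAAA on the sense strand or TTTCNNTTTC for the opposite strand. Of the 17 such members 12 had a promoter in the RefSeq table (GRCm38.p6, from 250 bases before to 50 after the gene start), and 7 of these 12 held a match. Of the other 24 tested members 18 had a promoter and 8 held a match. Counted by single promoters, 3.44% of all 32851 of this length held a match. A list member counted if any of its promoters held one, so its share is not on the same footing. The match is a property of letters and says nothing of which factor was bound in these cells. The 4 promoters below, chosen after the values were seen, are shown because they carry matches in genes lower in all pairs. Capitals mark the matches, and overlapping ones run together.
Ifit3 (chr19:34583279-34583578, plus strand, matches starting 156 and 122 bases before the gene start): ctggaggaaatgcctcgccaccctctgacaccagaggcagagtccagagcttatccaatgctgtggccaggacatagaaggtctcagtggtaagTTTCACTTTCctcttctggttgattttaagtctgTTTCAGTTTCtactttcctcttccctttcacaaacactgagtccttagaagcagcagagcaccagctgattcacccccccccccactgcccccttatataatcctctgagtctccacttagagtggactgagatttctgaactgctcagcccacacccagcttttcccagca
Cxcl10 (chr5:92348840-92349139, minus strand, match starting 213 bases before the gene start): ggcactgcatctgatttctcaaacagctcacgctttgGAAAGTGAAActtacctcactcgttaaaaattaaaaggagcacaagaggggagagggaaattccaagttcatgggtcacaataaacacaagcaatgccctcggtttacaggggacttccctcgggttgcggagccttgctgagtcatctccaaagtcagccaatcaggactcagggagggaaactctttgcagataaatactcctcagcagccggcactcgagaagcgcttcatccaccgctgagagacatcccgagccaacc
Gbp2 (chr3:142620413-142620712, plus strand, match starting 59 bases before the gene start): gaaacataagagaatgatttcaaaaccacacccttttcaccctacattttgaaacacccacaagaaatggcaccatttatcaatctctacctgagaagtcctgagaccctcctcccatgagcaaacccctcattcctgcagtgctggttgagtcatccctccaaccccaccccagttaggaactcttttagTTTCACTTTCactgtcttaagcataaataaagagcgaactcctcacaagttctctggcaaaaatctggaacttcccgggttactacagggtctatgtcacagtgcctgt
Oas1a (chr5:120907476-120907775, minus strand, matches starting 20 and 14 bases before the gene start): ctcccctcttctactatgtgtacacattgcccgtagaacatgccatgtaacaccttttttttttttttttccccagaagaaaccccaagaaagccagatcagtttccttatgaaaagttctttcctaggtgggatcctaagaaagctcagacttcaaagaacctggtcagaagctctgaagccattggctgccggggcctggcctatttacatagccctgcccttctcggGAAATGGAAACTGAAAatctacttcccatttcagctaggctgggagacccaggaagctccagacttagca

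Ly6a (chr15:74825307-74828318), which encodes the Sca1 antigen used in the sort and is itself inducible by interferon, was at 178, 190 and 122 CPM on oxymetholone and at 243, 228 and 310 CPM on placebo. All oxymetholone libraries lay below all placebo libraries, and the log2 change was -0.69 ± 0.24 (edgeR adjusted p = 0.688), or -0.35 without pair 3. Because Sca1 protein set the gate, how this level relates to the gate was not tested. In the wild-type pairs the interferon list had a median of -0.19 with 40 of 41 members below 0, and 14 were lower in 3 of 3 pairs, as were 15.4% of all genes. The difference between genotypes had a list median of 0.01 and no member was called by edgeR for it, where 0% of all genes were. Cxcl10 had a log2 change of -1.69 ± 0.31 in wild-type cells and -0.73 ± 0.30 in Fancd2-/- cells.

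Mitotic genes leaned lower in Fancd2-/- cells and higher in wild-type cells. Of 30 genes of G2/M and mitosis 25 had a fitted change below 0 in Fancd2-/- KSL cells, with a median of -0.19 log2 units, whereas all 30 were above 0 in wild-type KSL cells, with a median of 0.34 and 29 of them higher in 3 of 3 wild-type pairs (14% of all genes were). In 3 of 3 Fancd2-/- pairs 8 were lower (26.7%) and 3 higher (10%), where the shares over all genes were 11.6% and 9.38%. The Fancd2-/- medians by pair were 0.02, -0.16 and -0.38. Pair 3 thus carried much of the lower level, and without it the median was -0.08. The fitted difference of the oxymetholone effect, Fancd2-/- minus wild-type, was below 0 for 30 of 30 genes with a median of -0.50. For 19 of the 30 its unadjusted p was under 0.05, where 3.45% of all genes were, and none was called by edgeR, whose smallest adjusted p was 0.953.

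Ccnb1, which encodes cyclin B1, was at 40.3, 43.4 and 36 CPM in Fancd2-/- cells on oxymetholone and at 45.7, 49 and 56.9 CPM in Fancd2-/- cells on placebo (log2 -0.34 ± 0.14). Its wild-type levels were 29.7, 30.5 and 35.5 CPM on oxymetholone and 18, 26.2 and 28.1 CPM on placebo (0.43 ± 0.14). Every Fancd2-/- library on oxymetholone was below and every wild-type one above its placebo group, while the wild-type levels were lower than the Fancd2-/- levels on both diets. Cdc25c, the phosphatase that triggers mitotic entry, had a log2 change of -0.33 ± 0.14 in Fancd2-/- cells, lower in 3 of 3 pairs, and a difference from wild-type of -0.71. Without pair 3 the Fancd2-/- changes were -0.17 for Ccnb1 and -0.16 for Cdc25c.

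Mki67 and Cenpf went the other way. Mki67, which encodes the proliferation antigen Ki-67, was at 266, 299 and 256 CPM on oxymetholone and at 197, 247 and 181 CPM on placebo (0.40 ± 0.11). Cenpf was at 74.5, 86.3 and 69.8 CPM on oxymetholone and at 53.5, 64 and 47.5 CPM on placebo (0.49 ± 0.12). For both, all oxymetholone libraries were above all placebo libraries, as they were in 3 of 3 wild-type pairs (0.47 and 0.57). Both transcripts are long (10075 and 11137 bases), and after the length trend was taken off, their changes in pair 3 were -0.04 and -0.03 while pairs 1 and 2 kept 0.40 and 0.22 for Mki67 and 0.43 and 0.37 for Cenpf.

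Of 33 DNA replication genes 29 had a fitted change below 0 in Fancd2-/- cells (median -0.14) and 31 above 0 in wild-type cells (median 0.14), and the difference was below 0 for 33 of 33, with 2 at an unadjusted p under 0.05, where 3.45% of all genes were, and 0 called by edgeR. The Fancd2-/- pair medians were 0.03, -0.14 and -0.38. Only 3 (9.09%) were lower in 3 of 3 Fancd2-/- pairs, where 11.6% of all genes were. Among them was Mcm5, a subunit of the replicative helicase, at 445, 484 and 618 CPM on oxymetholone and 491, 586 and 875 CPM on placebo. Another was the GINS subunit gene Gins2 (-0.33 ± 0.14). Without pair 3 the list median was -0.03. Cyclins, CDKs and E2F factors of G1 and S phase had a median of 0.12 with 13 of 16 above 0.

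**Figure D4:**
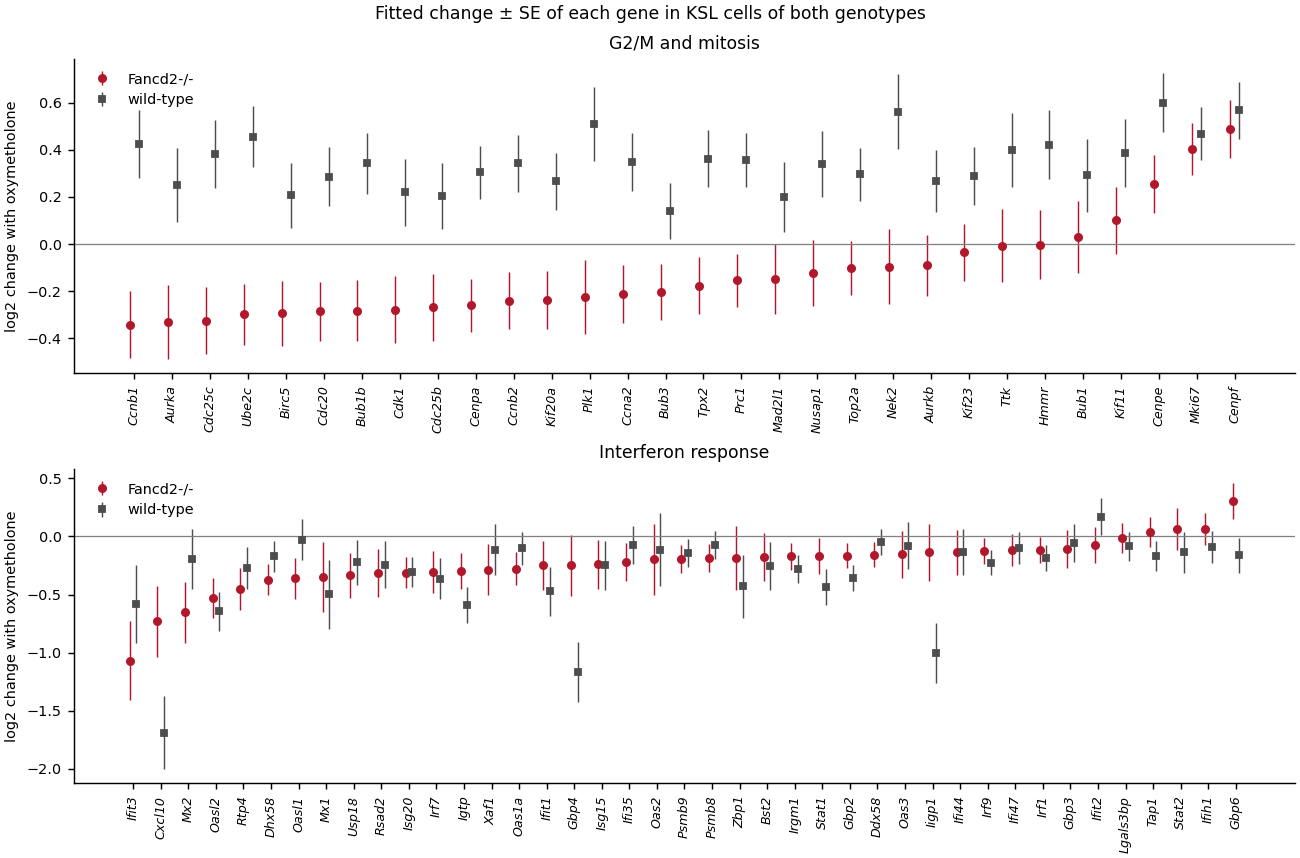
Fitted log2 change with oxymetholone (point, with SE as bar) of 30 mitosis genes (top) and 41 interferon response genes (bottom) in Fancd2-/- (red circles) and wild-type (grey squares) KSL cells, ordered by the Fancd2-/- change. In the mitosis list 25 red points but no grey ones lie below 0, while in the interferon list 37 red and 40 grey points do.

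Transcription factors and regulators of stem cells were mostly higher on oxymetholone. Of 23 genes 20 had a fitted change above 0, where 48.2% of all genes did, and the median was 0.18. In 3 of 3 pairs 8 were higher (34.8%) and 0 lower, where the shares over all genes were 9.38% and 11.6%. The medians by pair were 0.06, 0.11 and 0.30, with 0.10 in the fit without pair 3 and 0.15 with the length trend removed. Msi2 (chr11:88152884-88579543), an RNA-binding protein that sustains stem cell self-renewal, was at 282, 242 and 265 CPM on oxymetholone and at 237, 166 and 158 CPM on placebo. Runx1, the core-binding factor needed for definitive blood formation, was at 154, 146 and 183 CPM on oxymetholone and at 138, 139 and 79.6 CPM on placebo. The groups did not overlap for either gene, with log2 changes of 0.51 ± 0.15 and 0.47 ± 0.19, and for Runx1 most of the change lay in pair 3 (1.20 against 0.16 and 0.07). Gata2 had the same shape, at 226, 260 and 362 CPM on oxymetholone and 213, 247 and 176 CPM on placebo, with 0.08 in pairs 1 and 2 and 1.04 in pair 3. Hoxb4, a homeobox gene that expands stem cells when raised, had a log2 change of 0.41 ± 0.15. In wild-type pairs the list median was -0.06.

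Surface markers of stem cells did not move as a group, with 11 of 21 above 0 and a median of 0.01. Apart from Ly6a, the SLAM family gene Cd48, carried by more mature progenitors, was at 261, 284 and 232 CPM on oxymetholone and at 270, 292 and 340 CPM on placebo. The stem cell and platelet gene Vwf was at 16, 21.3 and 24 CPM on oxymetholone and at 15.9, 19.6 and 16.4 CPM on placebo. In both genes the difference lay mostly in pair 3. Esam, an adhesion molecule of stem cells and endothelium, was higher by 0.09, 0.07 and 0.12 log2 units in the 3 pairs.

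Inhibitors of the cell cycle leaned higher, with 15 of 17 fitted changes above 0 and a median of 0.17. Only 2 (11.8%) were higher in 3 of 3 pairs, where 9.38% of all genes were. One was Rb1, which encodes the retinoblastoma protein that holds back S phase entry, at 26, 25.7 and 23.8 CPM on oxymetholone and at 25.2, 23.5 and 13.5 CPM on placebo (0.33 ± 0.17), with overlapping groups. Cdkn1c, which encodes the quiescence inhibitor p57, was at 35.1, 29.3 and 25.9 CPM on oxymetholone and at 28.3, 26.2 and 26.6 CPM on placebo. Its levels overlapped, and its log2 changes of 0.14 ± 0.12 in Fancd2-/- cells and -0.40 ± 0.12 in wild-type cells had a difference of 0.54 ± 0.17 (unadjusted p = 0.0082, edgeR adjusted p = 0.953). In the TGF-beta list 21 of 27 genes were above 0 (median 0.11). In 3 of 3 pairs 7 were higher (25.9%) and 1 lower (3.7%), where the shares over all genes were 9.38% and 11.6%. Bmpr2, a type II BMP receptor, was at 9.76, 11.4 and 11.6 CPM on oxymetholone and at 7.21, 8.5 and 7.42 CPM on placebo, with no overlap (0.51 ± 0.16). The activin receptor gene Acvr1b (0.64 ± 0.22, or 0.32 without pair 3) and the inhibitory Smad6 (0.38 ± 0.19, or 0.17 without pair 3) were higher in 3 of 3 pairs, and the BMP target Id3 (-1.06 ± 0.39) was lower in 3 of 3.

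**Figure D5:**
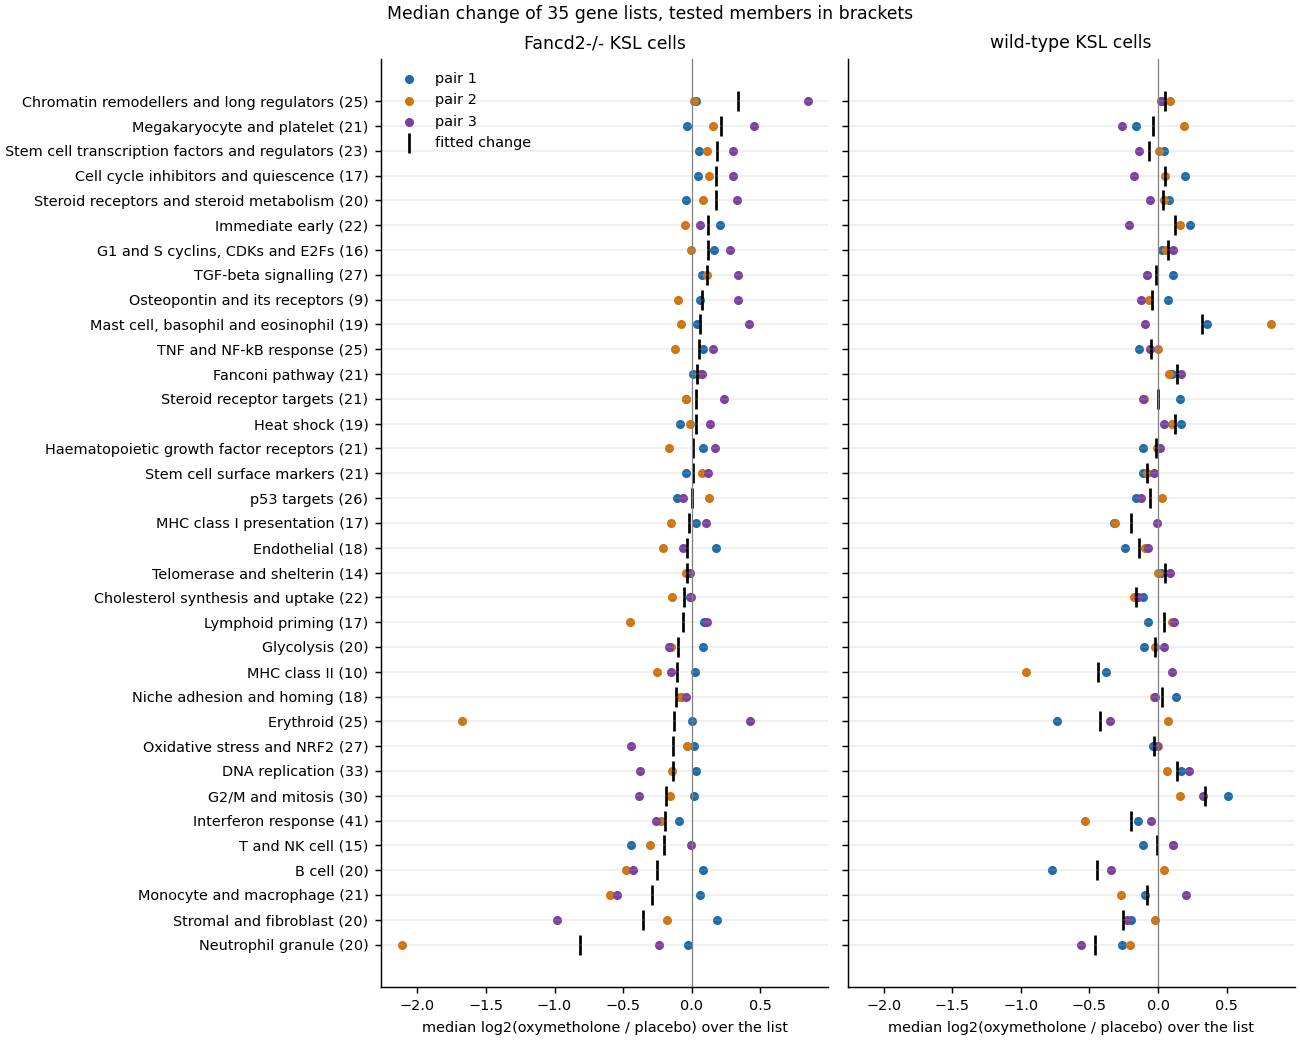
Median log2 ratio of oxymetholone to placebo of 35 gene lists in Fancd2-/- (left) and wild-type (right) KSL cells, with coloured points for pairs 1 to 3, a black bar for the median of the fitted changes and the number of tested genes in brackets. The interferon points lie below 0 in all 6 pairs, the mitosis points below 0 in 2 of 3 Fancd2-/- pairs and above 0 in 3 of 3 wild-type pairs, and pair 2 stands far left in the neutrophil and erythroid lists.

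Spp1 (NM_009263, chr5:104864137-104870069), which encodes osteopontin, was at 16.1, 13 and 5.52 CPM on oxymetholone and at 13.3, 13.9 and 561 CPM on placebo. It was slightly higher in pair 1 (0.27), slightly lower in pair 2 (-0.10) and 6.66 log2 units lower in pair 3, whose placebo library alone was high. The fitted log2 change was -1.68 ± 1.96 (edgeR adjusted p = 0.814), and without pair 3 it was 0.086 ± 0.57. Wild-type levels of Spp1 were 7.99, 6.66 and 8.99 CPM on oxymetholone and 34.2, 5.81 and 6.69 CPM on placebo, where again 1 placebo library was high. That wild-type library also had Timp1, Pcolce and Dcn at 1.32, 2.07 and 1.06 CPM. Every other wild-type KSL library had them at no more than 0.153, 0.813 and 0.184 CPM. The placebo library with 561 CPM of Spp1 was also the one with the matrix genes and the length trend given above. Its levels of Dcn, Pdgfra and Col1a1, which mark fibroblasts, were 19, 8.4 and 12.3 CPM against at most 0.205, 0.536 and 0.887 CPM in each of the other 5. How far these RNAs share a source with its Spp1 was not tested. Of the 9 tested genes of osteopontin and its receptors, CD44 and the integrins, 0 had the same sign in 3 of 3 pairs, and the list median was 0.08.

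Genes of androgen and steroid biology gave small values. Of 20 genes of steroid receptors and steroid metabolism 2 (10%) were higher in 3 of 3 pairs, where 9.38% of all genes were. Their median was 0.17 with 15 of 20 above 0. The value rested on pair 3, with pair medians of -0.04, 0.08 and 0.33 and a median of 0.025 without pair 3 and of 0.045 with the length trend removed. Steroid receptor targets had a median of 0.03 with 1 gene in each direction. Tert, the catalytic subunit of telomerase and a known androgen target in human cells, was at 3.62, 4.49 and 5.31 CPM on oxymetholone and at 5.39, 4.93 and 3.78 CPM on placebo. Its pairs disagreed in sign (-0.57, -0.13 and 0.49), and the telomerase and shelterin list had a median of -0.03. In the Fanconi pathway 12 of 21 genes were above 0 (median 0.04), and 3 long transcripts, Fancm, Brca2 and Brca1, were higher in 3 of 3 pairs. Brca2 was at 73.1, 73.3 and 67.4 CPM on oxymetholone and at 62, 53.2 and 49.5 CPM on placebo (0.38 ± 0.12). With the length trend removed, 1 gene of the list was higher in 3 of 3 pairs. Targets of p53 had a median of -0.001 with 13 of 26 above 0.

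The lists of this paragraph had medians between -0.20 and 0.12. Immediate early genes had a median of 0.12, with 5 of 22 (22.7%) higher in 3 of 3 pairs, where 9.38% of all genes were. Among them were Fos, at 14.2, 24.3 and 27.4 CPM on oxymetholone and 7.78, 13.4 and 20.6 CPM on placebo (0.70 ± 0.49), and Dusp5, which inactivates ERK (0.49 ± 0.17). Oxidative stress genes had 22 of 27 below 0 and a median of -0.13, but the medians by pair were 0.01, -0.04 and -0.45, and without pair 3 the value was 0.02. TNF and NF-kB response (0.05), heat shock (0.03), MHC class I presentation (-0.02), cholesterol synthesis (-0.05), glycolysis (-0.10), growth factor receptors (0.01), lymphoid priming (-0.07), niche adhesion and homing (-0.11), endothelial (-0.03), MHC class II (-0.11), T and NK cell (-0.20) and mast cell, basophil and eosinophil genes (0.06) made up the rest. Hmox1, the heme oxygenase of the oxidative stress response, was at 0.546, 4.41 and 3.31 CPM on oxymetholone and 4.65, 5.69 and 3.78 CPM on placebo, low in a single oxymetholone library. Epor, the erythropoietin receptor gene, had a log2 change of 0.37 ± 0.23. The glycolytic gene Hk2 had one of 0.36 ± 0.14.

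Chromatin remodellers and long regulators had a list median of 0.34, with 24 of 25 above 0 and 7 (28%) higher in 3 of 3 pairs (9.38% of all genes). Their median transcript length was 9179 bases. The medians by pair were 0.03, 0.02 and 0.85, with pair 3 far above the others, and without pair 3 the fitted median was 0.06. With the trend removed it was 0.11, again with 7 members higher in 3 of 3 pairs. Chd1, at 83.4, 85.3 and 95.2 CPM on oxymetholone and 70.8, 67.7 and 52.9 CPM on placebo, and Ash1l, at 125, 121 and 132 CPM on oxymetholone and 115, 99.5 and 65.7 CPM on placebo, had groups that did not overlap (0.47 ± 0.13 and 0.47 ± 0.15).

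Lists of genes of mature blood cells were uneven between libraries. Neutrophil granule genes had a median of -0.82, but the medians by pair were -0.02, -2.12 and -0.24. In 3 of 3 pairs 7 of 20 (35%) were lower and 0 higher, where the shares over all genes were 11.6% and 9.38%. With the length trend removed, 4 members were lower in 3 of 3 pairs and the median was -0.66. Ngp, which encodes a granule protein of the cathelicidin family, was at 2.59, 7.05 and 5.78 CPM on oxymetholone and at 5.96, 58.1 and 6.63 CPM on placebo, with Lcn2, Retnlg and Mmp8 also highest in the placebo library of pair 2. The summed level of this list was 1339, 1235 and 2509 CPM on oxymetholone and 1089, 2040 and 1640 CPM on placebo, with the oxymetholone library of pair 3 highest. Erythroid genes had a median of -0.13 with pair medians of 0.00, -1.68 and 0.43. In 3 of 3 pairs 5 of 25 (20%) were lower and 2 (8%) higher, where the shares over all genes were 11.6% and 9.38%. The lower ones included Hba-a1, Hba-a2, Hbb-b1 and Hbb-b2, whose overlapping entries are not separate measurements. Slc4a1, the anion exchanger of the red cell membrane, was at 27.4 CPM in the placebo library of pair 2 and at most at 0.402 CPM in the other 5 libraries. The neutrophil and globin differences therefore stood beside a higher level of mature red cell transcripts in 1 placebo library, whose part in them was not tested.

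Monocyte and macrophage genes had a median of -0.29, with 6 of 21 (28.6%) lower in 3 of 3 pairs, where 11.6% of all genes were. The pair medians were 0.06, -0.60 and -0.54, and without pair 3 the median was -0.17. The complement gene C1qb was at 3.41, 2.55 and 2.83 CPM on oxymetholone and at 4.71, 6.38 and 5.29 CPM on placebo (-0.91 ± 0.34), and C1qa was lower in all pairs too (-0.73 ± 0.37). B cell genes had a median of -0.25 and 6 of 20 (30%) lower in 3 of 3 pairs, where 11.6% of all genes were. Pair 1 had the other sign (pair medians 0.09, -0.48 and -0.42), and with the length trend removed the median was -0.14. Ebf1 (chr11:44431636-44818674), the transcription factor that commits cells to the B lineage, was at 0.341, 0.288 and 0.155 CPM on oxymetholone and at 0.908, 1.52 and 0.722 CPM on placebo, with no overlap and a log2 change of -2.06 ± 0.51 (edgeR adjusted p = 0.688). Its difference held in each pair (-1.31, -2.23 and -1.95) and without pair 3 (-1.98). Only the placebo library of pair 2 had Ebf1 above 1 CPM, so these changes rest on few reads. The summed level of the B cell list was 1020, 803 and 936 CPM on oxymetholone. It was 907, 948 and 1110 CPM on placebo, with overlapping groups. Stromal and fibroblast genes had a median of -0.36, with pair medians of 0.19, -0.18 and -0.99, and of 0.06 without pair 3. Megakaryocyte and platelet genes had a median of 0.21. In 3 of 3 pairs 5 of 21 were higher (23.8%) and 1 lower (4.76%), where the shares over all genes were 9.38% and 11.6%. The pair medians were -0.03, 0.15 and 0.45, and without pair 3 the list median was 0.11 and the changes of Zfpm1 and Gp5 were 0.33 and 0.40. Zfpm1, which encodes the GATA1 cofactor FOG1, was at 92, 115 and 239 CPM on oxymetholone and at 78.3, 86.6 and 92 CPM on placebo (0.68 ± 0.19), and the platelet glycoprotein gene Gp5 was at 16.2, 18.1 and 28.1 CPM on oxymetholone and 13.9, 12.4 and 13.7 CPM on placebo (0.62 ± 0.20). In the endothelial list the transcription factor gene Sox18 was higher by 0.42 ± 0.16 with no overlap, at 11.3, 12.9 and 12.8 CPM on oxymetholone and 9.14, 8.63 and 10 CPM on placebo.

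Without pair 3, whose placebo library stood apart, edgeR called 0 of 13219 genes, with 427 (3.23%) at an unadjusted p under 0.05. In pairs 1 and 2 together 2370 genes (17.9%) were higher and 2889 (21.8%) lower on oxymetholone. The genes with the smallest p were now others, apart from BC005561 (0.51 ± 0.12) and Mad1l1 (-0.47). Myl10, a myosin light chain gene, was at 114 and 37.7 CPM on oxymetholone and at 40.9 and 23.4 CPM on placebo in pairs 1 and 2, but at 29.6 CPM on oxymetholone and 37 CPM on placebo in pair 3. Npm3, Hsd17b12 and Ankrd24 had the same pattern, higher in pairs 1 and 2 (log2 1.99, 0.59 and 0.95 in the fit of these pairs) and lower in pair 3. Pik3ip1, which inhibits PI3 kinase, was at 153 and 188 CPM on oxymetholone and at 248 and 307 CPM on placebo in pairs 1 and 2, against 216 CPM on oxymetholone and 164 CPM on placebo in pair 3. The GTPase gene Rhob (-0.71) and the phospholipase gene Pld3 (-0.45) were likewise lower in these pairs and not in pair 3. Ngp (-2.36) was lower in all, with -0.20 log2 units in pair 3. With the length trend removed, the pair 3 change of Ngp was 0.11.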

How the data were processed

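RNA of sorted KSL cells was sequenced as 51-base reads from TruSeq libraries, per the labels. The authors deposited whole-number counts per RefSeq transcript, aligned with Bowtie to mm9 per the submitters' processing notes, and a score matrix that the authors scaled to a common total and rounded to whole numbers. No source used here gives the counter, its strand setting, the treatment of multiply mapped reads or the tool versions. The counts held 26005 transcripts in 20 libraries, and for each of 20377 symbols the transcript with the largest total was kept. Reads of a gene and an overlapping or antisense partner cannot be told apart.

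Counts of the 12 KSL libraries were fitted with edgeR 4.0.16 (R 4.3.3, TMM, filterByExpr, robust quasi-likelihood) with a pair block in each genotype and an oxymetholone effect per genotype, whose difference was also tested. An adjusted p (Benjamini-Hochberg) under 0.05 counted as a call. Within-pair log2 ratios used a prior count of 2, and the reported SE belongs to the fitted log2 change. The pairs come from the design text, which says that partners shared a flow cytometer setting. The deviations of same-numbered Fancd2-/- libraries from their group means correlated at 0.13, -0.06 and 0.21 for pairs 1, 2 and 3, while libraries of different pairs correlated at up to 0.26. On simulated counts of the 13259 genes, edgeR recovered 82% of 100 genes changed 2-fold and 94% of 100 changed 4-fold, with 8 false calls. Each changed gene had the same planted change in all 3 pairs, with no length trend within pairs and no library set apart. The real pairs differ from this, so these shares do not carry over to them.

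Alternatives were DESeq2 1.42.0, limma 3.58.1 (voom, the deposited score and length-adjusted values), other size factors, no low-count filter, no block, the 6 Fancd2-/- libraries alone, and leaving out pairs or a library. Members and gene lists were chosen with earlier results of these data known. The named genes were the 12 in each direction with the smallest p among genes of 1 sign in 3 of 3 pairs at a mean of 5 CPM, the 1.5-fold genes at that mean, the 5 in each direction without pair 3, up to 4 members per list with the largest change of 1 sign in 3 of 3 pairs, and Fancd2, Spp1, Kit, Ly6a, Cdkn1c, Tert and Atrx. Some genes that this rule selects are not reported here. Marker genes of other cells given as library checks were named after their values were seen. Erythroblast and whole marrow libraries were not used here. Promoters came from RefSeq (GRCm38.p6), and gene positions are those of mm9.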

Additional observations from a re-analysis of the deposited data

Results flagged for a closer look

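For 18 of the genes that the naming rule selects, every Fancd2-/- pair had one sign and every wild-type pair the other. The rule mostly takes genes of 1 sign in 3 of 3 Fancd2-/- pairs, which raises this count. The share of all genes with such opposite signs was not counted. Over all genes, 14% were higher and 15.4% lower in 3 of 3 wild-type pairs. Of the 18 genes the 13 described in the report follow, and the other 5 had differences between -3.35 and 0.42 log2 units. The fitted difference of the oxymetholone effect, Fancd2-/- minus wild-type, was tested for each in edgeR, and none was called (smallest Benjamini-Hochberg adjusted p over all genes 0.953). Mitotic and replication genes were lower in the Fancd2-/- pairs and higher in the wild-type pairs, with differences of -0.77 log2 units for Ccnb1, -0.71 for Cdc25c, -0.47 for Mcm5 and -0.38 for Gins2. The same direction held for the nuclear pore gene Nup93 (-0.68), the pseudogene Rasl2-9-ps (-0.85) and Cd48 (-0.53). The opposite direction, higher in the Fancd2-/- pairs and lower in the wild-type pairs, held for Vwf (0.83), Sox18 (0.75), Tbkbp1 (0.72), Smad6 (0.59), Hk2 (0.53) and Esam (0.28). With the length trend removed, Vwf and Hk2 were higher in 2 of 3 Fancd2-/- pairs. Without pair 3 the Fancd2-/- change was 0.07 for Vwf, against 0.23 with it, 0.15 against 0.36 for Hk2, 0.17 against 0.38 for Smad6, -0.037 against -0.21 for Cd48 and -0.10 against -0.33 for Gins2, and those of Ccnb1, Cdc25c and Mcm5 were -0.17, -0.16 and -0.20. Beyond the library checks given above, groups of 3 libraries were not searched for single outlying samples.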

How the results depend on the processing

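No gene was called under 9 of the 12 alternatives, DESeq2, voom and the removal of pair 3 included. Without the low-count filter 16 genes were called, all lower, and leaving out a pair gave 0 to 12 calls, with 12 without pair 1 and 12 without pair 2. All of these lower genes, 11 in each fit without a pair and 16 without the filter, were highest in the placebo library of pair 3, and all but Fn1 were at least 10-fold above the other 5 libraries there. The higher genes were Atrx without pair 1 (0.50 to 0.90 log2 units over the left-out pairs) and Plec without pair 2, and Fn1 ranged from -3.31 to -1.29. With no replicate block 0 genes were called, and the change of Pld3 had the other sign (0.0064). The 23 genes past 1.5-fold became 2 at 2-fold, 7 at a mean of 5 CPM and 15 with the length trend removed, an alternative chosen after seeing the data, and asking for agreement in the remaining pairs only gave 77 to 170. The 2781 genes of 1 sign in 3 of 3 pairs became 5259 to 6957 when 1 pair was left out, since fewer pairs must then agree. The Spp1 change ranged from -3.53 to 0.086 when 1 pair was left out, with the opposite sign without pair 3. The sign also differed between left-out pairs for Ankrd24 (-0.28 to 0.95), Hsd17b12 (-0.28 to 0.59), Npm3 (-0.22 to 1.99), Pld3 (-0.45 to 0.22) and Tert (-0.33 to 0.19). Without the placebo library of pair 3 and with no block, Nhp2 of the telomerase list was at 0.033 log2 units, of the other sign. The causes were not tested. Depth was lowest in the libraries of pair 1, which limits what their low genes can show.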
